A study of Mus musculus with 12 samples.

Results

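Hyaluronan is made, bound and broken down by a small group of proteins, and the transcripts of 9 of them were followed here in mouse bone marrow mesenchymal stem cells (MSCs): the synthases Has1, Has2 and Has3, the receptor Cd44, the binding proteoglycan versican (Vcan), the cross-linker Tnfaip6, and the degrading proteins Cemip, Hyal1 and Hyal2. The genes were chosen by name for these roles and make up 9 of the 55401 genes in the deposited table. The MSCs came from C57BL/6 mice and were bought as a bone marrow MSC culture. They were left untreated (Control), treated with 5 ng/mL TGF-β1, or treated with the same dose of TGF-β1 in medium in which monocytic (M-MDSC) or granulocytic (G-MDSC) myeloid-derived suppressor cells had been cultured for 24 h at 500000 cells/mL. Exposure of the MSCs is described as 24 h for cultures of this kind and is not given separately for the RNA libraries. The MDSCs had been induced from bone marrow cells with GM-CSF and IL-6 and then sorted, and each of the 4 groups held 3 mRNA libraries. The labels do not say whether these came from separate cultures, so p-values measure the spread between these libraries only. No group received supernatant without TGF-β1.

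Hyaluronan is a long, unbranched sugar polymer that the synthases assemble at the plasma membrane from UDP-glucuronic acid and UDP-N-acetylglucosamine and extrude into the matrix as they build it. CD44 on the cell surface binds it and links it to the actin cytoskeleton, whereas versican and the protein that Tnfaip6 encodes (also known as TSG-6) organise it into a pericellular coat. Hyaluronidases and the hyaluronan-binding protein CEMIP cut it. In fibroblasts, a hyaluronan coat is known to accompany the passage to the myofibroblast state that TGF-β1 induces, and CD44 is a standard surface marker of MSCs.

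The libraries held 73977669 to 84565450 counts. A gene was tested where its FPKM (fragment counts divided by exon length and sequencing depth, so that levels of different genes can be compared) reached 1 in at least 3 of the 12 libraries, and 12016 genes passed. Of the 9 hyaluronan genes, Has2, Cd44, Vcan, Tnfaip6 and Hyal2 passed, and Has1, Has3, Cemip and Hyal1, at 1.11 FPKM or less in every library, did not. The latter 4 were tested in a second fit over 18761 genes. A gene was called changed at an edgeR quasi-likelihood adjusted p under 0.05. Of 7 transcripts that mark MSCs, 6 passed the filter, with Eng below it at 0.635 to 0.968 FPKM, whereas none of Kit, Pecam1 and Ptprc, which MSCs lack, did. On average, 2 of the 6 MSC markers were lower with TGF-β1 alone than in the untreated libraries, Ly6a (Sca-1) at 16.2 against 245 FPKM and Thy1 at 2.16 against 4.49 FPKM. The other 4 were higher, Itgb1 at 385 against 254 FPKM, Pdgfrb at 44.7 against 32.3 FPKM, Nt5e at 1.00 against 0.407 FPKM and Cd44 as given below.

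The most prominent change in the group was that of Has2, the main hyaluronan synthase of mesenchymal cells. Its gene lies on the minus strand at chr15:56665627-56694539 of GRCm38 (ENSMUSG00000022367). In the untreated libraries Has2 stood at 13.8, 13.3 and 12.6 FPKM, and with TGF-β1 alone at 101, 108 and 97.8 FPKM. It was thus several times higher in every TGF-β1 library than in any untreated one. In M-MDSC sup it stood at 99.0, 108 and 99.4 FPKM, and in G-MDSC sup at 115, 111 and 115 FPKM. Has2 rose 8.05-fold with TGF-β1 (log2 fold change 3.01, SE 0.055, 95% interval 2.89 to 3.13, edgeR adjusted p = 2.71e-10). Of the 12016 genes tested, Has2 had the smallest p in this comparison and was number 51 by the size of its rise, as the plot of all genes shows. It also had the smallest p of all genes when either supernatant group was compared with the untreated MSCs, comparisons that share the same 3 untreated libraries.

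**Figure D1:**
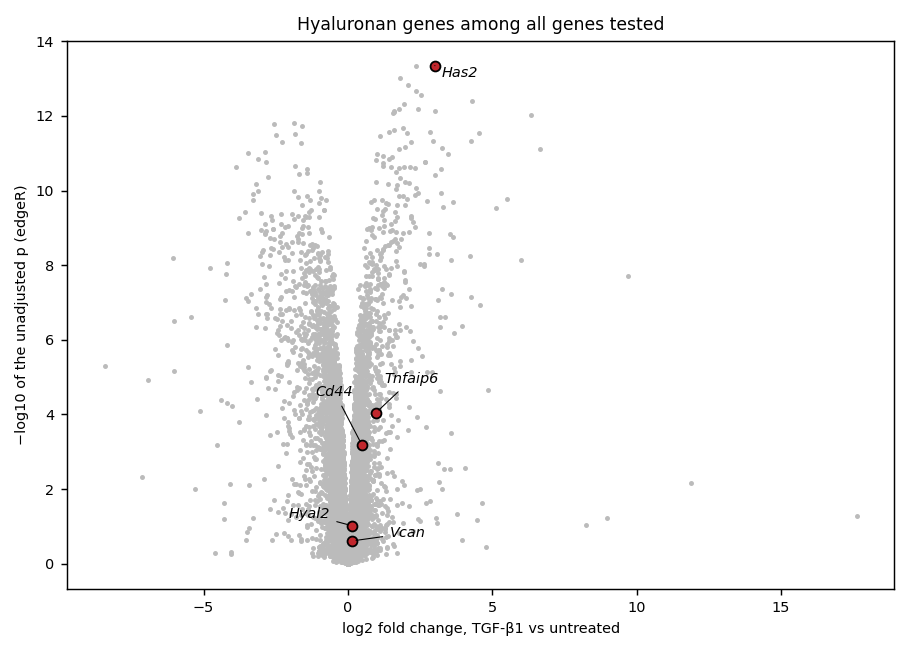
Log2 fold change (x axis) and the negative log10 of the unadjusted edgeR p (y axis) of the 12016 genes tested between TGF-β1-treated and untreated MSCs, 3 libraries each. Grey points are genes and red points the 5 hyaluronan genes that passed the filter. Has2 lies at the top of the plot at 3.01, Tnfaip6 and Cd44 lie to the right of 0 at 0.98 and 0.48, and Vcan and Hyal2 lie near the bottom.

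Has1 and Has3, the other synthases, were present at a small fraction of the Has2 level. Has1 (chr17:17843323-17855205) stood at 0.457, 0.175 and 0.513 FPKM in untreated MSCs and at 0.734, 0.976 and 0.789 FPKM with TGF-β1, so the groups did not overlap. Its rise of 2.28-fold was called in the wider fit (log2 fold change 1.19, SE 0.32, edgeR adjusted p = 0.0193), but rested on 75 to 402 counts a library in these 6 libraries. Without TGFb1 replicate 2 the change was 1.06 with an adjusted p of 0.0665, and with only these 2 groups in the fit it was 1.20 with an adjusted p of 0.0622. Has3 stayed between 0.192 and 0.349 FPKM in untreated MSCs and between 0.194 and 0.243 FPKM with TGF-β1, and its log2 fold change of −0.16 was not called (edgeR adjusted p = 0.707). The antisense transcript Has2os, annotated on the opposite strand of Has2, did not pass the FPKM filter. In the wider fit it had log2 fold change 0.26 with TGF-β1 (SE 0.31, edgeR adjusted p = 0.627), against 3.01 for Has2 in the fit over the filtered genes. Whether the counts were made by strand is not given in the sources used here, so reads from the stretch that Has2 and Has2os share cannot be told apart.

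As a result, nearly all synthase transcript was Has2 in every group. Summed over the 3 synthases, the FPKM came to 13.9 ± 0.612 (SD, n = 3) in untreated MSCs and 103.4 ± 5.42 with TGF-β1 alone. Has2 made up 95.4% ± 1.66 of that sum before and 99.0% ± 0.0664 after treatment. The libraries did not overlap in either measure, and the two-sided exact permutation test gave p = 0.1, the smallest that 3 against 3 libraries allow.

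**Figure D2:**
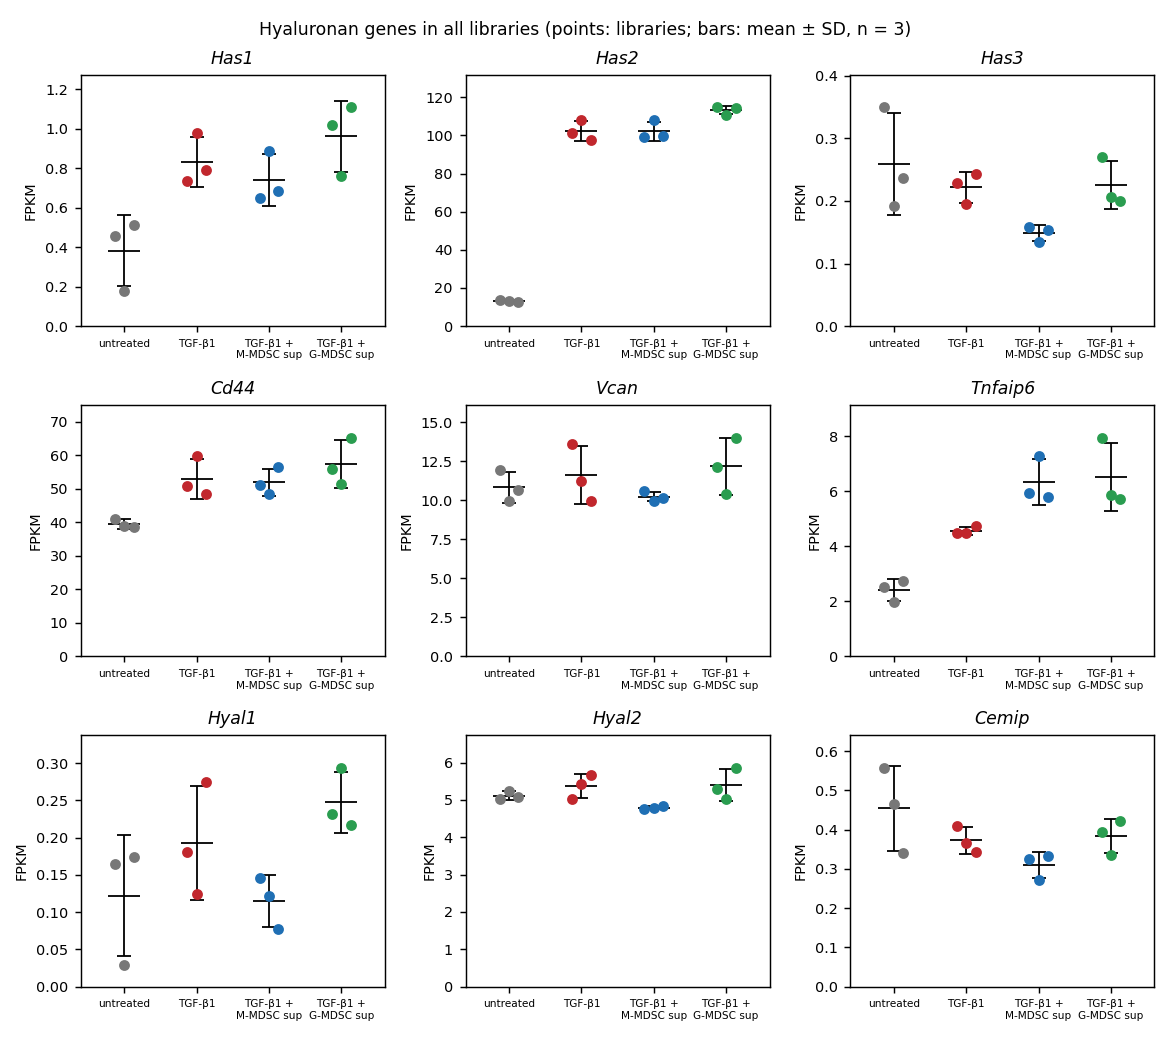
FPKM (y axis, from 0) of the 9 hyaluronan genes in the 4 groups (x axis). Each point is a library and the bars give the mean and SD of 3 libraries. Has2 rises from 13.2 to 102 FPKM on average with TGF-β1 and lies at 102 and 113 FPKM with M-MDSC and G-MDSC sup, Tnfaip6 steps up with TGF-β1 and lies higher again with either supernatant, and Vcan overlaps among all groups.

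Tnfaip6 encodes a secreted protein that transfers heavy chains of inter-α-inhibitor onto hyaluronan and so cross-links it. It is annotated at chr2:52038009-52056686 on the plus strand (ENSMUSG00000053475). Its level was 2.53, 1.97 and 2.72 FPKM in untreated MSCs and 4.48, 4.46 and 4.73 FPKM with TGF-β1 alone. It was 5.93, 7.29 and 5.78 FPKM with M-MDSC sup and 7.95, 5.88 and 5.71 FPKM with G-MDSC sup. Every TGF-β1 library was above every untreated one, and every supernatant library was above every library with TGF-β1 alone, which held for 13.4% of all genes tested with M-MDSC sup and 13.2% with G-MDSC sup. The rise with TGF-β1 was called (log2 fold change 0.98, SE 0.16, 1.97-fold, edgeR adjusted p = 0.000656). The further differences with M-MDSC sup (0.45, SE 0.16, edgeR adjusted p = 0.161) and with G-MDSC sup (0.49, SE 0.16, edgeR adjusted p = 0.115) were not called, although DESeq2 gave an adjusted p of 0.0421 for the latter. These 2 differences are taken against the same 3 TGF-β1 libraries, in which Tnfaip6 varied little (SD 0.146 FPKM).

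The sequence before Tnfaip6 is shown because, of the 7 members with a RefSeq promoter entry (GRCm38.p6), its window was the only one with a match to all 3 motifs searched. Has2 and Has3 are the members without an entry. The AP-1 motif was spelled TGANTCA. The letters CAGAC were searched as the SMAD box, and GGAATG stood for the TEAD site. All were searched on both strands in the 250 bases before the start that RefSeq annotates and were picked with the results known. For Tnfaip6 the RefSeq start is at 52038113, whereas the gene starts at 52038009 in GENCODE, so the last 104 bases of its window lie within the GENCODE gene. The TEAD match is among these 104 bases. The 146 bases before both starts are printed, and capitals mark the AP-1 and SMAD matches.
Tnfaip6, chr2:52037863-52038008, plus strand: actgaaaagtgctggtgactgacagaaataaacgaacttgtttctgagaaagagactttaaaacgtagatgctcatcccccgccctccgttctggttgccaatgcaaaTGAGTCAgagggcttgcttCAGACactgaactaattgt
Of 32851 promoters of the same length, 6.75% held the AP-1 letters, 42.2% the SMAD box and 12.6% the TEAD letters. The window of Has1 held 2 SMAD boxes and neither of the others, and that of Cd44 held none of the 3. These are matches of letters and not binding sites.

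Versican, the large proteoglycan that Vcan encodes and that binds hyaluronan through its link domain, did not pass the test in any comparison. Vcan (chr13:89655312-89742509) stood at 11.9, 9.93 and 10.7 FPKM in untreated MSCs and at 13.6, 11.3 and 9.93 FPKM with TGF-β1 alone. With M-MDSC sup it stood at 10.6, 9.97 and 10.2 FPKM, and with G-MDSC sup at 12.1, 10.4 and 14.0 FPKM. The 4 groups overlapped. The log2 fold change with TGF-β1 was 0.16 (edgeR adjusted p = 0.393), with a 95% interval from −0.12 to 0.44, so these libraries leave room for a rise of up to 1.35-fold. That change ran from 0.026 to 0.25 when each library was left out in turn. Vcan had 11893 to 18216 counts a library.

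Cd44, the hyaluronan receptor, rose with TGF-β1 by a modest amount. The study followed it as a marker of MSC adhesion and migration, by quantitative PCR and, for surface CD44, by flow cytometry. It reported that TGF-β1 raised surface CD44, and that M-MDSC supernatant lowered CD44 in both assays. The libraries here measure transcript and not surface protein. Cd44 lies at chr2:102811141-102901665 on the minus strand (ENSMUSG00000005087). Cd44 stood at 41.1, 38.8 and 38.5 FPKM in untreated MSCs and at 50.7, 59.8 and 48.5 FPKM with TGF-β1 alone. With M-MDSC sup it stood at 51.0, 48.5 and 56.4 FPKM and with G-MDSC sup at 55.8, 51.3 and 65.3 FPKM. All 9 TGF-β1-treated libraries were above the untreated ones, and the 3 treated groups overlapped each other. The change with TGF-β1 was 1.40-fold (log2 fold change 0.48, SE 0.10, edgeR adjusted p = 0.00347) and ranged from 0.39 to 0.53 when each library was left out in turn. Against TGF-β1 alone, the log2 fold change was −0.05 with M-MDSC sup (95% interval −0.27 to 0.17, edgeR adjusted p = 0.865) and 0.091 with G-MDSC sup (−0.13 to 0.31, edgeR adjusted p = 0.744). In folds the M-MDSC sup interval ran from 0.828 to 1.13, so a loss of transcript beyond 0.828-fold lies outside it. Between the supernatants the difference was −0.14, M-MDSC minus G-MDSC, with an interval from −0.36 to 0.081.

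The counts of Cd44 pool all 9 of its annotated transcripts (GENCODE M21), whereas the CD44 primers of the study match only 1 of them. The sequences are shown because they define what each assay could count. In the forward primer, capitals mark the 15 bases in exon 6 of Cd44-201 (chr2:102848768-102848782), after 5 bases in exon 5 (chr2:102853015-102853019), and the reverse primer lies in the same exon 6 (chr2:102848672-102848691), all on the minus strand of GRCm38.
CD44 forward primer: caccaTTGCCTCAACTGTGC
CD44 reverse primer: ttgtgggctcctgagtctga
Both primers are found in Cd44-201, the longest transcript with 19 exons, where they give a product of 116 bp. Exon 5 ends at the same base in 8 of the 9 transcripts and is followed by a different exon in each of the 8. Below are the junctions of 3 of them, the last 15 bases of exon 5 in lower case and the first 15 of the next exon in capitals.
Cd44-201, exon 6 at chr2:102848657-102848782: gcaccttggccaccaTTGCCTCAACTGTGC
Cd44-207, exon 6 at chr2:102842261-102842377: gcaccttggccaccaATATAGACAGAATCA
Cd44-203, exon 6 at chr2:102828542-102828610: gcaccttggccaccaGAGATCGAGACTCAT
Cd44-203, with 9 exons, has the fewest exons of the 8 and skips all of those in between, and Cd44-207 joins exon 5 to one of the skipped exons. The 126-base exon 6 of Cd44-201 overlaps no exon of the other 8 transcripts. The gene counts give no level for any single transcript, so the level of Cd44-201 was not analysed here.

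**Figure D3:**
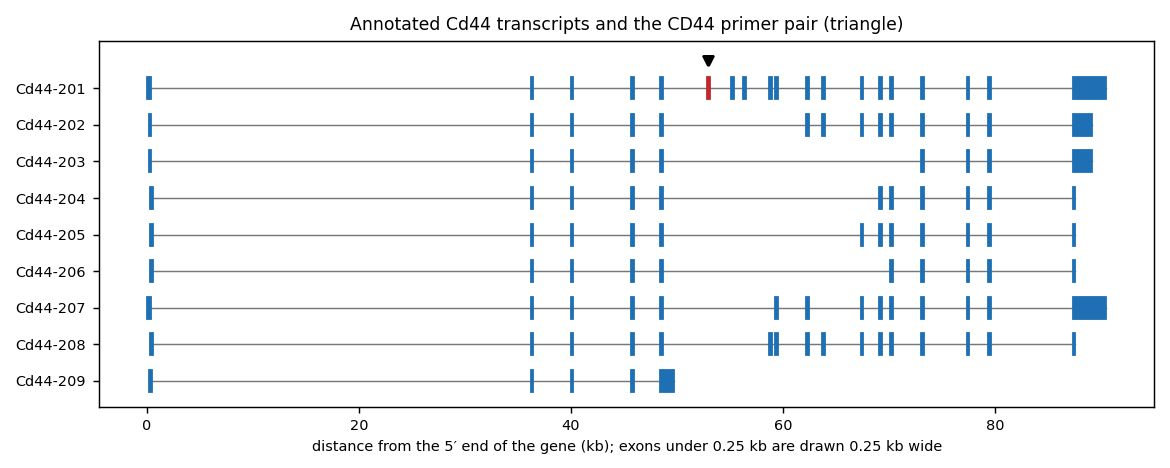
The 9 annotated Cd44 transcripts (rows), with exons as boxes at their distance in kb from the 5′ end of the gene (x axis). The red box is exon 6 of Cd44-201 and the triangle marks the place of the CD44 primer pair there. The pair lies on that exon except for 5 bases of the forward primer in exon 5, and none of the other 8 transcripts holds the red exon.

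The degrading genes among the 9 were low, and none of them was called with TGF-β1. Hyal2, a membrane-anchored hyaluronidase, stood at 5.03, 5.25 and 5.07 FPKM in untreated MSCs and at 5.03, 5.44 and 5.68 FPKM with TGF-β1 (log2 fold change 0.13, edgeR adjusted p = 0.194). With M-MDSC sup it stood at 4.76, 4.79 and 4.83 FPKM, below every library of each other group, and with G-MDSC sup at 5.30, 5.03 and 5.86 FPKM. The difference of M-MDSC sup from TGF-β1 alone was −0.19 (SE 0.071, edgeR adjusted p = 0.201) and was not called. Cemip, which binds hyaluronan and leads to its cutting, lay between 0.340 and 0.558 FPKM in untreated MSCs and between 0.343 and 0.409 FPKM with TGF-β1 (log2 fold change −0.22, edgeR adjusted p = 0.426). With M-MDSC sup Cemip stood at 0.325, 0.273 and 0.332 FPKM, also below every library of each other group, and with G-MDSC sup it lay between 0.336 and 0.422 FPKM. The difference of M-MDSC sup from TGF-β1 alone was −0.27 (SE 0.17, edgeR adjusted p = 0.51) and was not called. All 3 M-MDSC sup libraries were below the 9 others in 0.890% of the 12016 genes, Hyal2 among them, and in 0.869% of the 18761 genes of the wider fit, which include Cemip and Has3. This pattern was picked out after the values were seen. Hyal1, the lysosomal hyaluronidase, had only 12 to 99 counts a library. Its log2 fold change of 0.70 had a 95% interval from −0.45 to 1.85 (edgeR adjusted p = 0.404), that is 0.73-fold to 3.6-fold, and its 3 untreated libraries had 54, 12 and 60 counts. Hyal1 stood at 0.180, 0.124 and 0.274 FPKM with TGF-β1 alone, at 0.146, 0.122 and 0.0773 FPKM with M-MDSC sup and at 0.232, 0.294 and 0.217 FPKM with G-MDSC sup. Hyal1 (chr9:107576927-107581710) also overlaps Naa80 and Hyal3 on the same strand, and reads in the shared stretch cannot be told apart.

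Synthase and degrading transcripts therefore moved by very different amounts. The summed FPKM of Cemip, Hyal1 and Hyal2 was 5.69 ± 0.0914 (SD, n = 3) in untreated MSCs and 5.95 ± 0.339 with TGF-β1 alone, and the groups overlapped (two-sided exact permutation p = 0.3). The ratio of the synthase sum to this sum was 2.44 ± 0.0835 in untreated MSCs and 17.4 ± 1.51 with TGF-β1, without overlap (exact permutation p = 0.1). It was 19.7 ± 1.09 with M-MDSC sup and 19.0 ± 1.06 with G-MDSC sup. The M-MDSC sup libraries were all above those with TGF-β1 alone (exact permutation p = 0.1), while the G-MDSC sup libraries overlapped them (exact permutation p = 0.3). These sums leave out Cemip2, a cell-surface hyaluronan-degrading protein outside the 9, which is described with the other genes below. With Cemip2 added after the values were seen, the degrading sum was 8.13 ± 0.154 FPKM in untreated MSCs and 8.999 ± 0.0741 FPKM with TGF-β1, without overlap (exact permutation p = 0.1). The ratio was then 1.705 ± 0.0463 and 11.5 ± 0.555, and it was 13.2 ± 0.974 with M-MDSC sup and 13.2 ± 0.762 with G-MDSC sup, both above TGF-β1 alone in every library (exact permutation p = 0.1 each). The ratio describes transcripts and not enzyme activity.

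Levels can be ordered because FPKM is per length. In untreated MSCs the order was Cd44 (39.5 FPKM), Has2 (13.2), Vcan (10.8), Hyal2 (5.12), Tnfaip6 (2.41), Cemip (0.454), Has1 (0.382), Has3 (0.259) and Hyal1 (0.122). Cemip, Has1 and Has3 overlapped each other in their ranges over libraries, whereas the 5 genes that passed the filter did not overlap each other. With TGF-β1 alone Has2, at 102 FPKM, stood above Cd44, at 53.0 FPKM, in all 3 libraries, and the order of Vcan, Hyal2 and Tnfaip6 below them stayed as it was. Among its 4 groups, Has2 was lowest without treatment, overlapped between TGF-β1 alone and M-MDSC sup, and was highest with G-MDSC sup.

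In the comparison of TGF-β1 with untreated MSCs, 3 of the 5 hyaluronan genes tested were called, all higher, against 34.0% of all genes tested. By the rule of the study, a fold above 2 or below 0.5 with an unadjusted p under 0.05, only Has2 was called, 1 of 5, against 6.74% of all genes. Tnfaip6, at 1.97-fold, lay just under that cut. Its log2 fold change ran from 0.85 to 1.08 when each library was left out in turn, which spans the cut of 1 on this scale. The same 3 genes had libraries that did not overlap between the groups, which held for 46.7% of all genes. Over the wider gene set, 4 of the 9 members were called, against 24.6% of the 18761 genes. The median log2 fold change of the 5 members was 0.48, beside 0.000478 over all genes tested. With so few members these shares only place the list beside the whole table. The weight of the result lies in the size of the Has2 change.

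Genes that supply, bind or cut the polymer around these members were also compared, from a list of 55 in which 28 passed the filter. With TGF-β1, 10 of the 28 rose and 9 fell (median log2 fold change 0.0246), beside 16.1% of all genes tested that rose and 17.9% that fell. The same shares stand beside the counts by role below, in which each role holds only 4 to 6 genes tested. Of the 28, Ambp was at 0 in every untreated and TGF-β1 library and could not change in this comparison. A gene that reached 1 FPKM in only the untreated or only the treated libraries passed the filter through them. Such a gene could count in only 1 direction. Among 6 genes that make the UDP-sugar substrates, 4 rose and none fell. Ugp2, with a log2 fold change of −0.16 (edgeR adjusted p = 0.053), was not called, but was with DESeq2 (adjusted p = 0.0456), limma on log2(FPKM + 1) (0.0129), library totals alone as the scaling (0.0129) or without TGFb1 replicate 3 (0.0217). Those that rose were Gfpt1, Pgm3, Gnpnat1 and Ugdh, and Ugdh, which makes UDP-glucuronic acid, had a log2 fold change of 0.41 (SE 0.05, edgeR adjusted p = 9.53e-05). Gnpnat1, an enzyme of the UDP-N-acetylglucosamine route, rose by 0.86 (edgeR adjusted p = 0.0217). That call was lost without Control replicate 1 (adjusted p = 0.0808), Control replicate 3 (0.0801), TGFb1 replicate 1 (0.0523) or TGFb1 replicate 3 (0.0787).

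Of 4 binding and cross-linking genes tested, 2 fell and none rose. Ambp, among the 4, was at 0 in every untreated and TGF-β1 library and could do neither. Itih2 reached 1 FPKM only in the untreated libraries, so it passed the filter through them and could count only as a fall. Ptx3, whose secreted product binds TSG-6 and inter-α-inhibitor in the hyaluronan matrix, stood at 28.2, 27.4 and 28.9 FPKM in untreated MSCs and at 3.19, 2.70 and 3.45 FPKM with TGF-β1. It fell by 3.12 on the log2 scale (SE 0.12, edgeR adjusted p = 1.65e-08), about as far as Has2 rose. Itih2, a heavy chain of inter-α-inhibitor, fell from 1.53, 1.26 and 1.78 FPKM to 0.175, 0.195 and 0.299 FPKM (log2 fold change −2.70, SE 0.52, edgeR adjusted p = 0.00206). Acan, the cartilage proteoglycan aggrecan, failed the filter but rose by 2.61 in the wider fit (SE 0.25, edgeR adjusted p = 1.26e-05). It was at 0.0854, 0.142 and 0.181 FPKM without and 0.898, 0.716 and 0.800 FPKM with TGF-β1, and was named after its values were seen.

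The proteases that cut versican changed in both directions while Vcan itself did not pass the test. Of the 4 tested, 3 fell. The filter limits this count, since a gene that reached 1 FPKM in only the untreated or only the treated libraries could count in only 1 direction. Adamts4 was under 1 FPKM in every untreated library. Adamts9 fell by 2.57 (SE 0.13, edgeR adjusted p = 1.34e-07), Adamts5 by 1.89 (SE 0.12, edgeR adjusted p = 5.89e-07) and Adamts1 by 0.94 (SE 0.063, edgeR adjusted p = 9.95e-07). Adamts4 rose by 0.82 (SE 0.16, edgeR adjusted p = 0.00265). In FPKM, Adamts1 went from between 8.15 and 8.79 to between 3.95 and 4.51, and Adamts4 from between 0.446 and 0.741 to between 0.931 and 1.09.

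Among the CD44 partners, 3 of 6 rose and 1 fell. The ERM proteins, which tie CD44 to actin, split. Msn (moesin) was at 207, 193 and 195 FPKM in untreated MSCs and 330, 347 and 329 FPKM with TGF-β1 (log2 fold change 0.82, SE 0.041, edgeR adjusted p = 1.07e-07). Ezr (ezrin) was at 67.1, 66.1 and 67.6 FPKM and then at 37.0, 37.9 and 38.8 FPKM, a fall of 0.76 (SE 0.031, edgeR adjusted p = 2.36e-08). Rdx (radixin), at 49.8 FPKM on average in untreated MSCs and 49.5 FPKM with TGF-β1, had a log2 fold change of 0.049 (SE 0.27) and was not called. Its SE comes from the fit over all libraries, in which TGFb1_G replicate 2 stood at 19.7 FPKM against 50.5 and 52.1 FPKM in replicates 1 and 3. Thus the untreated and treated libraries did not overlap for moesin, which went up, or ezrin, which went down, while radixin was not called. Of the 4 other receptors tested 1 was called higher and 1 lower. Tlr4 was not called (log2 fold change −1.43, SE 0.78, edgeR adjusted p = 0.192). It stood at 5.99, 4.48 and 5.65 FPKM in untreated MSCs and at 2.07, 1.82 and 1.86 FPKM with TGF-β1, without overlap. The shared fit also holds the supernatant libraries, where Tlr4 ran from 0.219 to 2.17 FPKM. Layn (layilin), a hyaluronan-binding membrane protein, fell from between 9.93 and 11.9 FPKM to between 4.83 and 5.57 FPKM (log2 fold change −1.01, SE 0.11, edgeR adjusted p = 3.99e-05). In the degradation list, 1 of 4 rose and 2 fell, all by less than 1 on the log2 scale. The one that rose was Cemip2, from 2.53, 2.41 and 2.39 FPKM to 3.30, 3.13 and 2.72 FPKM (log2 fold change 0.38, SE 0.10, edgeR adjusted p = 0.0144), a call lost without TGFb1 replicate 1 (adjusted p = 0.0566).

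**Figure D4:**
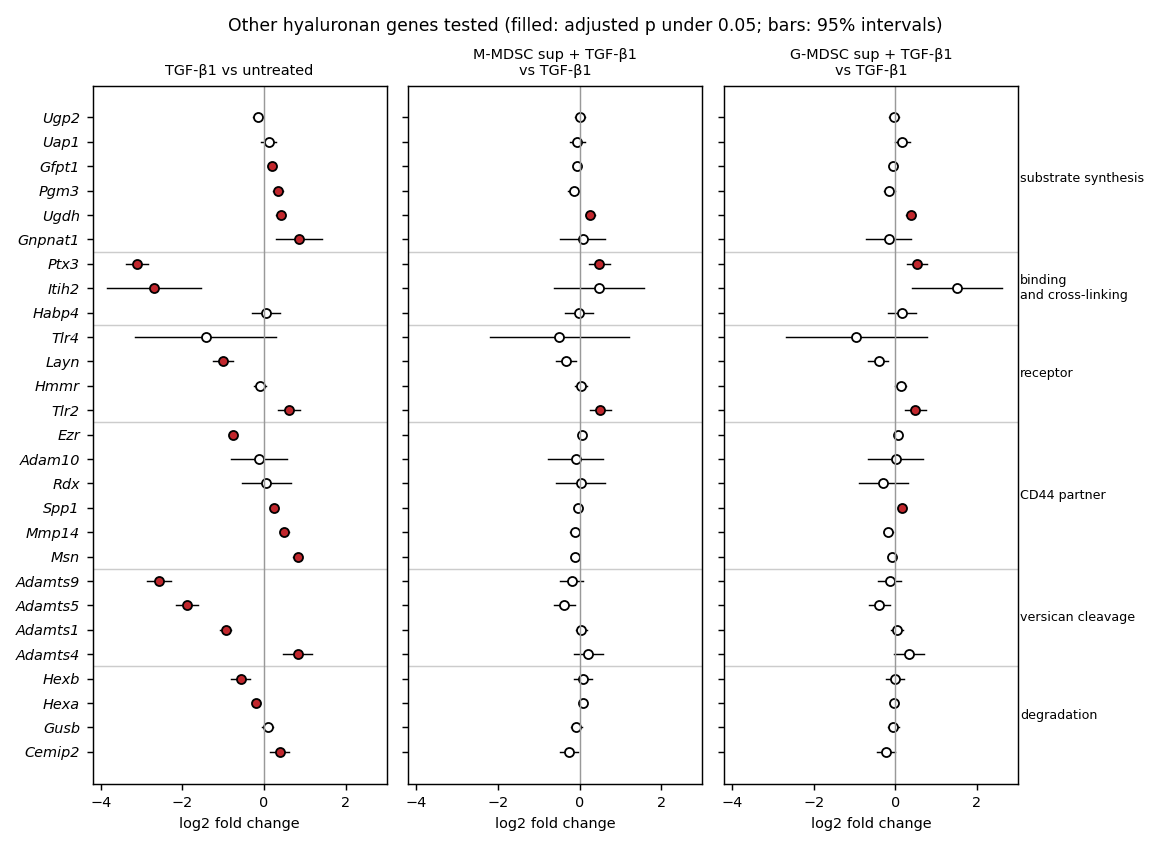
Log2 fold changes with 95% intervals (x axis) of 27 of the 28 other hyaluronan genes tested, grouped by role (rows), in 3 comparisons (panels). Filled points have an edgeR adjusted p under 0.05. With TGF-β1, Ptx3, Itih2 and the versican-cutting Adamts9 and Adamts5 lie far to the left at −3.12, −2.70, −2.57 and −1.89, and 4 of the 6 substrate genes are filled to the right of 0. In all 19 points are filled with TGF-β1, 3 with M-MDSC sup and 4 with G-MDSC sup. Ambp, listed at 0 in all 6 libraries without supernatant, is left out.

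No member was called by edgeR in either supernatant against TGF-β1 alone. In M-MDSC sup against TGF-β1 alone, edgeR called 0 of the 5 members, against 4.78% of all genes tested, and 2 of them, Tnfaip6 and Hyal2, had an unadjusted p under 0.05, as had 16.7% of all genes. DESeq2 and limma also called 0, against 6.91% and 4.49% of all genes. In G-MDSC sup against TGF-β1 alone, edgeR called 0 of 5, against 5.56% of all genes. There 2 members, Has2 and Tnfaip6, had an unadjusted p under 0.05, as had 17.2% of all genes. Limma called 0, against 5.61%, and DESeq2 called 1, Tnfaip6, against 8.24%. Has2 differed by −0.026 with M-MDSC sup (95% interval −0.14 to 0.087, edgeR adjusted p = 0.862) and by 0.12 with G-MDSC sup (0.0083 to 0.23, edgeR adjusted p = 0.247). Even at the ends of these intervals the difference was small beside the rise of 3.01 with TGF-β1. Tnfaip6 was 1.37-fold and 1.40-fold higher, with every supernatant library above every one with TGF-β1 alone. Over the wider gene set 0 of the 9 members were called, against 3.80% of genes with M-MDSC sup and 4.55% with G-MDSC sup. There Has3 was 0.666-fold with M-MDSC sup (95% interval 0.467 to 0.951, edgeR adjusted p = 0.254), and its M-MDSC sup libraries were below all others. Hyal1 was 0.606-fold with M-MDSC sup (0.272 to 1.35, edgeR adjusted p = 0.591), and these libraries overlapped. The forest plot of the 9 members shows both comparisons.

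**Figure D5:**
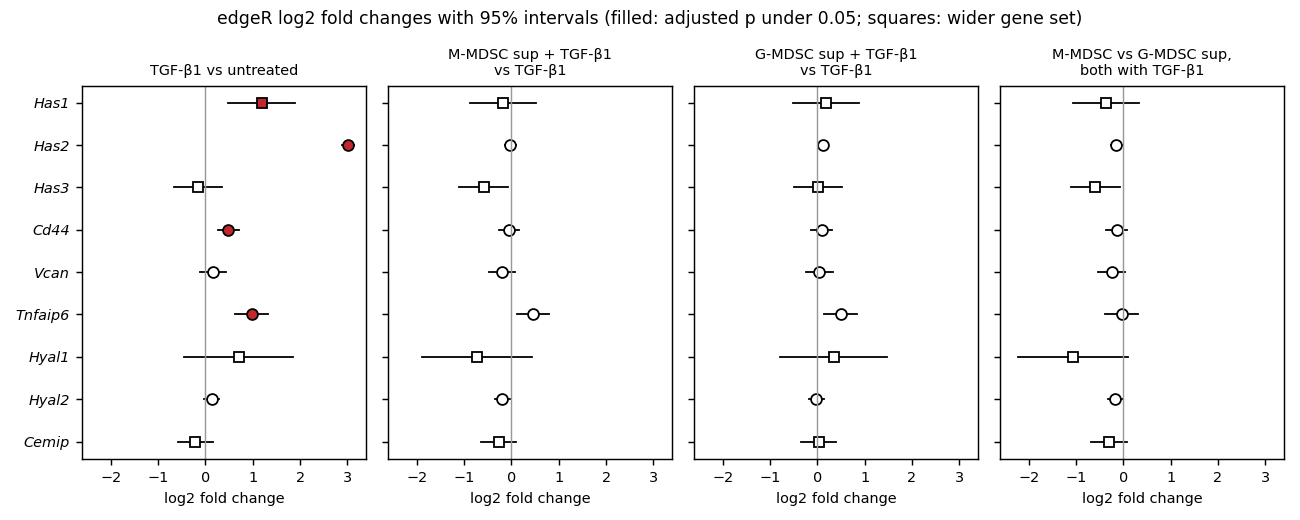
Log2 fold changes (x axis) with 95% intervals of the 9 hyaluronan genes (rows) in 4 comparisons (panels). Circles are genes that passed the FPKM filter and squares genes tested in the wider fit, and filled symbols have an edgeR adjusted p under 0.05. Has2, Tnfaip6, Cd44 and Has1 are filled in the TGF-β1 panel, at 3.01, 0.98, 0.48 and 1.19, and no symbol is filled in the 3 supernatant panels.

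Between the supernatants, M-MDSC against G-MDSC, edgeR called 0 of the 5 members, against 0.125% of all genes, and DESeq2 and limma called 0, against 1.01% and 0.325%. Has2 and Hyal2 had an unadjusted p under 0.05, as had 6.33% of all genes, with differences of −0.15 (SE 0.051, edgeR adjusted p = 0.636) and −0.17 (SE 0.071, edgeR adjusted p = 0.765), M-MDSC minus G-MDSC. The 3 Has2 libraries of M-MDSC sup were all below those of G-MDSC sup and so were those of Hyal2, as in 6.03% of all genes. In the wider fit Has3 had a difference of −0.59 (SE 0.23, edgeR adjusted p = 0.847), at 0.158, 0.134 and 0.153 FPKM with M-MDSC sup and 0.269, 0.207 and 0.200 FPKM with G-MDSC sup. That fit called 0 of the 9 members, against 0.0693% of genes.

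Against untreated MSCs, the members called with either supernatant were again Has2, Tnfaip6 and Cd44, 3 of 5. All genes called came to 35.2% for M-MDSC sup and 34.8% for G-MDSC sup. Has2 was 7.91-fold and 8.75-fold higher, respectively, Tnfaip6 2.69-fold and 2.76-fold, and Cd44 1.35-fold and 1.49-fold. By the rule of the study 2 of 5 were called with each, Has2 and Tnfaip6, against 6.98% of all genes with M-MDSC sup and 6.80% with G-MDSC sup. Over the wider gene set, 5 of 9 members were called with M-MDSC sup, against 26.5% of genes, and 4 of 9 with G-MDSC sup, against 26.7%. The additional calls were Has1 in both, at 1.01 (edgeR adjusted p = 0.0398) with M-MDSC sup and 1.37 (edgeR adjusted p = 0.00873) with G-MDSC sup, and Has3, lower by M-MDSC sup at −0.74 (edgeR adjusted p = 0.0357). The 2 calls with M-MDSC sup at these low levels were not stable. Has1 lost its call without Control replicate 1 (adjusted p = 0.0529) or TGFb1_M replicate 1 (0.0564), 2 (0.123) or 3 (0.0639). Has3 lost its call without Control replicate 1 (0.146), Control replicate 3 (0.0533) or TGFb1_M replicate 1 (0.0618), 2 (0.108) or 3 (0.0761).

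Among the 28 other hyaluronan genes, edgeR called 3 in M-MDSC sup against TGF-β1 alone and 4 in G-MDSC sup, all higher, beside 2.83% and 3.10% of all genes tested that were called higher. Ptx3, Tlr2 and Ugdh were called in both, which share the TGF-β1 libraries, and Spp1 in G-MDSC sup, and Ugdh, Tlr2 and Spp1 were named after their values were seen. Ugdh stood at 38.5, 42.3 and 41.5 FPKM with TGF-β1 alone, at 50.5, 51.8 and 47.1 FPKM with M-MDSC sup and at 56.3, 53.6 and 52.5 FPKM with G-MDSC sup. Its levels with supernatant were above those with TGF-β1 alone, which were in turn above the 31.2 to 33.1 FPKM of untreated MSCs. The differences were 0.26 (SE 0.05, edgeR adjusted p = 0.0121) and 0.38 (SE 0.05, edgeR adjusted p = 0.00108), and the former lost its call without TGFb1_M replicate 2 (adjusted p = 0.0537) or with only the 2 groups in the fit (0.0659).

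Ptx3 differed by 0.48 with M-MDSC sup (edgeR adjusted p = 0.0377) and 0.53 with G-MDSC sup (edgeR adjusted p = 0.0206), against its fall of 3.12 with TGF-β1. At 3.96 to 5.27 and 4.53 to 4.68 FPKM it remained far under the untreated level. The M-MDSC sup call was lost without TGFb1 replicate 1 (adjusted p = 0.0958), TGFb1 replicate 2 (0.132) or TGFb1_M replicate 3 (0.0915). The G-MDSC sup call was lost without TGFb1 replicate 1 (0.0571) or 2 (0.0772) or any 1 of TGFb1_G replicates 1 to 3 (0.0613, 0.0666 and 0.0523). Tlr2, an innate immune receptor that hyaluronan fragments are known to engage, differed by 0.50 and 0.49 (edgeR adjusted p = 0.0364 and 0.0371). Its calls were lost without TGFb1 replicate 1 (0.136 in both) or 2 (0.140 and 0.139), or any library of the supernatant group, TGFb1_M replicates 1 to 3 (0.111, 0.103 and 0.0671) or TGFb1_G replicates 1 to 3 (0.110, 0.0918 and 0.0874). Spp1, which encodes the CD44 ligand osteopontin, differed by 0.17 in G-MDSC sup (edgeR adjusted p = 0.042), a call lost without any 1 of the 6 libraries, TGFb1 replicates 1 to 3 (0.115, 0.139 and 0.0749) and TGFb1_G replicates 1 to 3 (0.158, 0.0542 and 0.0901).

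Kidney tubule marker transcripts were higher in the libraries with supernatant than in those without. The summed FPKM of 7 kidney tubule markers, of which 5 passed the filter, was at most 0.140 in the 6 libraries without supernatant, but 17.3 to 84.7 with M-MDSC sup and 51.3 to 63.8 with G-MDSC sup. Umod, the tubule marker uromodulin, was listed at 0 in those 6 libraries and at 0.930, 0.975 and 4.25 FPKM with M-MDSC sup, where replicate 3 stood apart. The sum of 12 myeloid markers, of which 5 passed the filter and Mpo and Elane were at 0 in all libraries, was 26.9 to 27.9 in untreated MSCs and 13.6 to 15.8 with TGF-β1 alone. It was 20.5 to 25.9 with M-MDSC sup and 25.8 to 29.3 with G-MDSC sup, and Cd14, at 12.4 to 23.6 FPKM, made up most of it. Single myeloid markers differed from that sum. Lyz2, the myeloid lysozyme, was at 0 to 0.191 FPKM in the 6 libraries without supernatant and at 0.651 to 2.29 FPKM in the 6 with it. Ly6g, a granulocyte marker, was at 1.74 to 1.89 FPKM in untreated MSCs and at 0.199 FPKM or less in the 9 treated libraries, and the monocyte marker Ly6c2 was at 1.59 to 1.83 FPKM and then at 0.308 FPKM or less. S100a9, abundant in neutrophils and monocytes, was at 0 in the 6 libraries without supernatant, at 0.980, 0.258 and 0.490 FPKM with M-MDSC sup and at 0, 0 and 3.397 FPKM with G-MDSC sup. S100a8, at most 0.0634 FPKM without supernatant, reached 0.513 FPKM with it, and Itgam, at most 0.00106 FPKM without, reached 0.0927 FPKM. None of 4 endothelial markers passed the filter, and their sum stayed at or under 0.565. The part of such transcripts in the supernatant results was not tested. Without TGFb1_M replicate 3, edgeR called 0 members in M-MDSC sup against TGF-β1 alone, as it did with all libraries. TGFb1_M replicates 1 and 2 still held Umod at 0.930 and 0.975 FPKM, so this count cannot show what part such transcripts had. In bulk libraries such as these, fewer cells of a type and less RNA per cell cannot be told apart.

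Across the 12 libraries, Has2 correlated with Tnfaip6 at a Pearson r of 0.903 and with Cd44 at 0.865, on a log scale of FPKM, and with Vcan at 0.175. Over the 9 treated libraries alone these values were 0.489, 0.546 and 0.425. The 12 libraries share the step from untreated to treated. The genes most like Has2 by the same measure were Jag1 (r = 0.998), a Notch ligand, Vegfa (r = 0.998), the angiogenic growth factor, and Acsbg1 (r = 0.998), an acyl-CoA synthetase. Jag1 went from 1.14 to 25.2 FPKM and Vegfa from 31.3 to 153 FPKM with TGF-β1 on average. The genes most like Cd44 were Cep170 (r = 0.945), Ncbp1 (0.942) and Hspa13 (0.929), and those most like Tnfaip6 were Mak16 (0.985), Bpifc (0.977) and Erp44 (0.976). For Vcan they were Lrch3 (0.938), Slc23a2 (0.926) and Ep300 (0.914). Hyal2 had lower values, with Gm25789 (0.875), Wwtr1 (0.846) and Ap1ar (0.840).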

How the data were processed

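mRNA libraries of MSCs in 4 groups of 3, named by the library labels, were sequenced as paired ends. The authors aligned the reads to GRCm38 with HISAT2 (version 2.0.4 per the submitters' processing notes) and assembled them with StringTie (1.3.4d). Per gene, they deposited raw counts and the FPKM calculated from these, in which 0 is written as 0.0001. The counting tool and its strand setting are not given in the sources used here. Of counts of 12 or less, 44.3% are multiples of 4, so counts divided by 4 were an alternative.

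From the counts, edgeR 4.0.16 (R 4.3.3; TMM, 1 fit over all 12 libraries, two-sided quasi-likelihood F test) tested 12016 genes, adjusted by Benjamini-Hochberg over all of them. The 4 low members, Has2os and Acan were tested over the 18761 genes that filterByExpr keeps, added after the data were seen. Intervals are 95% t intervals of that fit. DESeq2 1.42.0 and limma 3.58.1 on log2(FPKM + 1) and log2(FPKM + 0.1) were alternatives. Correlations used log2(FPKM + 1). The test was checked on simulated data with known changes. Same-numbered libraries did not deviate together across groups, so the number was not used. Python 3.11.15 with pandas 2.3.3 prepared the tables, and RefSeq promoters and GENCODE M21 transcripts gave the sequences.

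The named genes are the members, at most 10 other hyaluronan genes called with TGF-β1 or with both supernatants by size of the TGF-β1 change, others of that list where a result turns on them, and the 3 genes most correlated with each member tested. Members and lists were chosen with earlier results of these data known, and Gfpt1, Pgm3, Ugp2, Rdx, Tlr4 and Cemip2 were named after their values were seen. Pairwise variation between replicate libraries exceeded counting error, with 61.9 to 85.3 times its variance per gene, so intervals reflect the spread between libraries rather than depth.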

Additional observations from a re-analysis of the deposited data

How the results depend on the processing

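The number of members called was the same under nearly all alternatives. In TGF-β1 against untreated MSCs it was 3 of 5, 1 by the rule of the study and 4 with filterByExpr, which tests 4 more members. In G-MDSC sup against TGF-β1 it was 0, and 1 with DESeq2. Against untreated MSCs it was 3 with either supernatant and 2 by the rule of the study, and with filterByExpr it was 5 with M-MDSC sup and 4 with G-MDSC sup. Leaving out 1 library at a time changed none of the 6 counts by adjusted p over the 5 members past the FPKM filter, whereas Has1 and Has3 lost calls in the wider fit. Of 840 log2 fold changes of members under an alternative, 817 stayed on the same side of the threshold, 19 lost and 4 gained a call, and 0 called values changed sign. The losses were those of Has1 and Has3 and the gains those of Tnfaip6 and Cemip. In M-MDSC sup against untreated MSCs, Cemip at −0.49 (edgeR adjusted p = 0.0553) had an adjusted p of 0.0084 without Control replicate 3. The cause of these moves was not tested.

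Of the other 28 hyaluronan genes, the count called with G-MDSC sup was 4, 8 with DESeq2, 2 with no filter and 2 with the replicate block, and 1 to 3 without 1 library. With M-MDSC sup it was 3, 1 with no filter, 0 with only the 2 groups in the fit and 1 to 3 without 1 library. Some calls gained were lower and not higher. With DESeq2 in G-MDSC sup, Layn (−0.40, adjusted p = 0.0151) and Adamts5 (−0.38, 0.0288) were lower and Itih2 (1.52, 0.0252) was higher. With DESeq2 in M-MDSC sup, Adamts5 was lower (−0.36, adjusted p = 0.0498). Over all genes, the count between the supernatants was 15, and it was 121 with DESeq2, 39 with limma on log2(FPKM + 1), 41 with only the 2 groups, 8 with the replicate block, 9 without TGFb1_G replicate 1 and 47 without TGFb1_M replicate 3. For M-MDSC sup against TGF-β1 it was 574, and 351 with only the 2 groups and 355 without TGFb1 replicate 2. Other scalings moved the median log2 fold change of all genes to at most 0.0577 from 0.

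Labels give the groups the same replicate numbers, but residuals of same-numbered libraries had a mean correlation of −0.000255 over 18 pairs (−0.105 to 0.0743), and only 3 of 12 libraries correlated best with their own number. With the replicate block, Has2 in TGF-β1 against untreated MSCs had a log2 fold change of 3.01. The block took away the calls of Has1 in M-MDSC sup against untreated MSCs (1.06, adjusted p = 0.0567), of Tlr2 in both supernatant comparisons (0.0706 and 0.0677) and of Spp1 in G-MDSC sup (0.0902), and the count of members called was the same in all 6 comparisons.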

Other observations

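Inter-α-inhibitor is the serum protein whose heavy chains the Tnfaip6 product moves onto hyaluronan, and genes for its chains were present at low levels. Ambp, which encodes its light chain bikunin, was listed at 0 in the 6 libraries without supernatant, at 0.0316, 0.0603 and 1.16 FPKM with M-MDSC sup and at 1.60, 1.54 and 2.06 FPKM with G-MDSC sup. The heavy chain gene Itih3 was at 0.0369, 0.0458 and 0.0714 FPKM in untreated MSCs and at 0.0222 FPKM or less with TGF-β1 alone. It was at 0, 0.0249 and 0.383 FPKM with M-MDSC sup and at 0.307, 0.349 and 0.374 FPKM with G-MDSC sup. In both genes TGFb1_M replicate 3 stood apart from the other 2 libraries of its group and near the G-MDSC sup libraries. The kidney tubule marker Umod was also highest in replicate 3 within its group, there above the G-MDSC sup libraries, at 0.930, 0.975 and 4.25 FPKM with M-MDSC sup and 2.12, 2.14 and 2.38 FPKM with G-MDSC sup. These genes were named after their values were seen, and the part of RNA from other cells in them was not tested.

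The snoRNA gene Gm25789, the closest in pattern to Hyal2, was at 0.0867 FPKM on average with M-MDSC sup and at 2.24, 4.86 and 4.62 FPKM on average in the untreated, TGF-β1 and G-MDSC sup groups.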
